A study of Mus musculus with 18 samples.

Results

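The 36 genes described here encode the proteins that carry glucose into the cell, the enzymes of glycolysis, the lactate dehydrogenases and lactate exporters, the gate from pyruvate to the mitochondrion, a glycogen branching enzyme and the enzymes of the pentose phosphate pathway. They were chosen by symbol from a list of pathway genes, with no threshold on their measured values. All 36 were found among the 36528 entries of the deposited expression table, and all 36 were among the 13075 genes tested, which reached a level of 1 nRPKM in 3 or more of the 18 libraries. Pgk1 and Pgam1 reached it only through the cultures with beads, and Hk3 only through the cultures without them.

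RNA was sequenced from CD4 T cells of the spleen, taken from female NZB/W F1 mice, a hybrid strain that develops a disease like lupus. The mice were 21 to 27 weeks old and had 30 to 100 mg/dL of protein in the urine. All cultures held 250000 cells per well and IL-2 at 10 U/mL, and ran for 48 hours. There were 6 groups of 3 libraries: an IgG1 antibody to Ox40 (anti-Ox40) or an isotype control IgG1 (control Ig), each at 25 µg/mL, combined with 0 (no beads), 0.1 (low beads) or 1 (high beads) bead per cell. The beads carry antibodies to CD3 and CD28, which engage the T cell receptor complex and its main costimulatory receptor. Ox40 is a further costimulatory receptor of the TNF receptor family, found on activated T cells. The labels do not say whether the 3 libraries of a group came from separate mice, separate wells or a shared pool, so a p-value here reflects the spread between libraries and no more.

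Glycolysis splits glucose into pyruvate and yields ATP without oxygen. T cells that are activated and begin to divide are known for a large increase in glucose uptake and for turning much of the pyruvate into lactate, which monocarboxylate transporters export together with a proton. The pentose phosphate pathway branches off at glucose phosphate: its oxidative arm makes NADPH for synthesis and redox defence, and its other arm makes ribose phosphate for nucleotides and returns carbon to glycolysis.

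The values are nRPKM, a level per gene length and library size, so levels of different genes can be set side by side. Differences are in log2(nRPKM + 1), which understates the change of genes near or below 1 nRPKM. They are given with their standard error (SE) and a Benjamini-Hochberg adjusted p from limma over all 13075 genes, and a gene was called at an adjusted p under 0.05. An nRPKM of 1 over 1 kb stood for 26.4 to 46.0 reads, depending on the library. Pearson correlations across genes, between libraries of 1 group, were 0.989 to 0.995. All 10 CD4 T cell markers examined were detected in every group, with a summed level of 1838 to 2407 nRPKM. In each group the library numbered 3, in accession order, had the highest summed level of 10 B cell markers, from 7.60 to 57.2 nRPKM, against 4.46 to 11.3 nRPKM in the others. In control Ig with low beads, replicate 2 stood apart from the others of its group: its level of the nuclear RNA Malat1 was 173 nRPKM, against 453 and 435 nRPKM in replicates 1 and 3.

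Some of these genes have near-identical copies, and the counting of reads shared between copies is not known from the sources used here. Of the 50-base stretches of 1 coding transcript per gene, 82.5% also occurred in other annotated genes for Gapdh, 72.2% for Eno1, 68.0% for Pgk1 and 41.5% for Pgam1. This share was 34.4% for Pkm, 27.0% for Ldhb and 25.3% for Gpi1, and under 10% for 22 of the 36 genes. Gapdh, Pgk1 and Pgam1 were listed at 0.452 to 8.47 nRPKM as group means, although Tpi1 before them and Eno1 after them averaged 704 and 141 nRPKM with anti-Ox40 at high beads. The levels of these genes are therefore uncertain, and the part of shared reads in them was not tested.

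Promoter sequence is shown for 5 genes whose levels carry the results below: Slc16a3, Tpi1 and Hk2, which had the largest antibody effects at low beads, Ldha, the more abundant of the lactate dehydrogenase genes, and Pdk2, which was lower with antibody at high beads. Each line gives the 250 bases before a transcription start that RefSeq lists for the gene on GRCm38.p6, written 5′ to 3′ along the gene. For Slc16a3 and Ldha that start lies inside the gene's annotated span, downstream of its outer end. Capitals mark ACGTG or GCGTG on either strand, the core letters of the hypoxia response element, and the E-box CACGTG, which contains ACGTG on both strands. The E-box is the site bound by Myc and other basic helix-loop-helix factors.
Slc16a3 (chr11:120948817-120949066, plus strand): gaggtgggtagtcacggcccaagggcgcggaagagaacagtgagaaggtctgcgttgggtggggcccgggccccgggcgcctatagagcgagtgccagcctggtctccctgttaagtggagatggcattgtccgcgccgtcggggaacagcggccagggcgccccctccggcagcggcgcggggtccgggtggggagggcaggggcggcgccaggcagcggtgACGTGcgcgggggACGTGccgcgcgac
Hk2 (chr6:82774455-82774704, minus strand): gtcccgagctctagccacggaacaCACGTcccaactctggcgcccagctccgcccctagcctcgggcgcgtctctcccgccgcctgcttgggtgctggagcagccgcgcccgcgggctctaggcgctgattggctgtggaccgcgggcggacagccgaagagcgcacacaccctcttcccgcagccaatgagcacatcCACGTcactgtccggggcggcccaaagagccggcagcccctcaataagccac
Ldha (chr7:46845554-46845803, plus strand): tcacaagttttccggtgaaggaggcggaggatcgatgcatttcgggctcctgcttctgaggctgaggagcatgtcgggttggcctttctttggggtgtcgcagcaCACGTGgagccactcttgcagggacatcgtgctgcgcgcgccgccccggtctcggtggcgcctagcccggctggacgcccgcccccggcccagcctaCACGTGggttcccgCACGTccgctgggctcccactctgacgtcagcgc
Tpi1 (chr6:124814159-124814408, minus strand): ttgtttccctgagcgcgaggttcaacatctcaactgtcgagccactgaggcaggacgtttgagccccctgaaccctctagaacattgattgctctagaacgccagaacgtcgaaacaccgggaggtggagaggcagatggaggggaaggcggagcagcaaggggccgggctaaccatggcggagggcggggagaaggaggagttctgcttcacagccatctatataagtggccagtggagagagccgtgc
Pdk2 (chr11:95041372-95041621, minus strand): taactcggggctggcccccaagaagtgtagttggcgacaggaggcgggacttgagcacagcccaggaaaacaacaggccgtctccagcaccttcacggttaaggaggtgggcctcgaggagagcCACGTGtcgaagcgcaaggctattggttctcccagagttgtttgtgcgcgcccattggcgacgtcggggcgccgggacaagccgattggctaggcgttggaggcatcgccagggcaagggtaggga

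A promoter was listed for 35 of the 36 genes, all but Slc2a3. ACGTG or GCGTG, on either strand, was found in 27 of the 35 windows (77.1%), against 58.0% of the 8730 promoters of tested genes and 38.6% of all 27025 promoters in that table. The E-box was found in 4 of 35 (11.4%), against 8.65% of the promoters of tested genes and 6.05% of all promoters. Ldha held 2 E-boxes and Pdk2 held 1, Slc16a3 and Hk2 held ACGTG on one strand or the other but no E-box, and the Tpi1 window held none of these letters. A match of letters is a description of the sequence and shows no binding.

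Beads raised most of the pathway under both antibodies. The 36 genes together made up 0.286 to 0.302% of all nRPKM in anti-Ox40 cultures without beads and 0.286 to 0.288% in control Ig cultures without beads. At low beads this share was 0.622 to 0.647% with anti-Ox40 and 0.442 to 0.498% with control Ig, and the antibody groups did not overlap. At high beads it was 1.38 to 1.47% with anti-Ox40 and 1.32 to 1.36% with control Ig. The high-bead ranges did not overlap either, although they lay closer together than those at low beads.

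Low beads against none called 29 of 36 genes higher and 3 lower with anti-Ox40, against 37.1% of all tested genes higher and 33.7% lower. With control Ig the same step called 26 higher and 4 lower, against 32.6% and 29.8% of all tested genes. Higher calls thus outnumbered lower ones by far in the list and only slightly over all genes. The median difference of the 36 genes was 0.68 with anti-Ox40 and 0.52 with control Ig, against 0.007 and 0.006 over all tested genes. High beads against low beads called 29 higher and 2 lower with anti-Ox40, against 40.3% and 31.2% of all tested genes, and also 29 higher and 2 lower with control Ig, against 40% and 32.5%. The medians of that step were 1.09 and 1.14, against 0.053 and 0.042 over all tested genes. The largest differences of low against no beads belonged to the triose phosphate isomerase gene Tpi1 and the lactate exporter gene Slc16a3. Those of high against low beads belonged to Slc2a3 with anti-Ox40 (2.57) and to Slc16a3 with control Ig (3.27). The genes that went down were Hk3, Pfkfb4, Eno3, Pdk2 and, in 1 comparison, Gbe1. Pgk1 and Pgam1 were tested only through the cultures with beads, and Hk3 only through those without. Their bead calls therefore lend these counts no support.

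**Figure D1:**
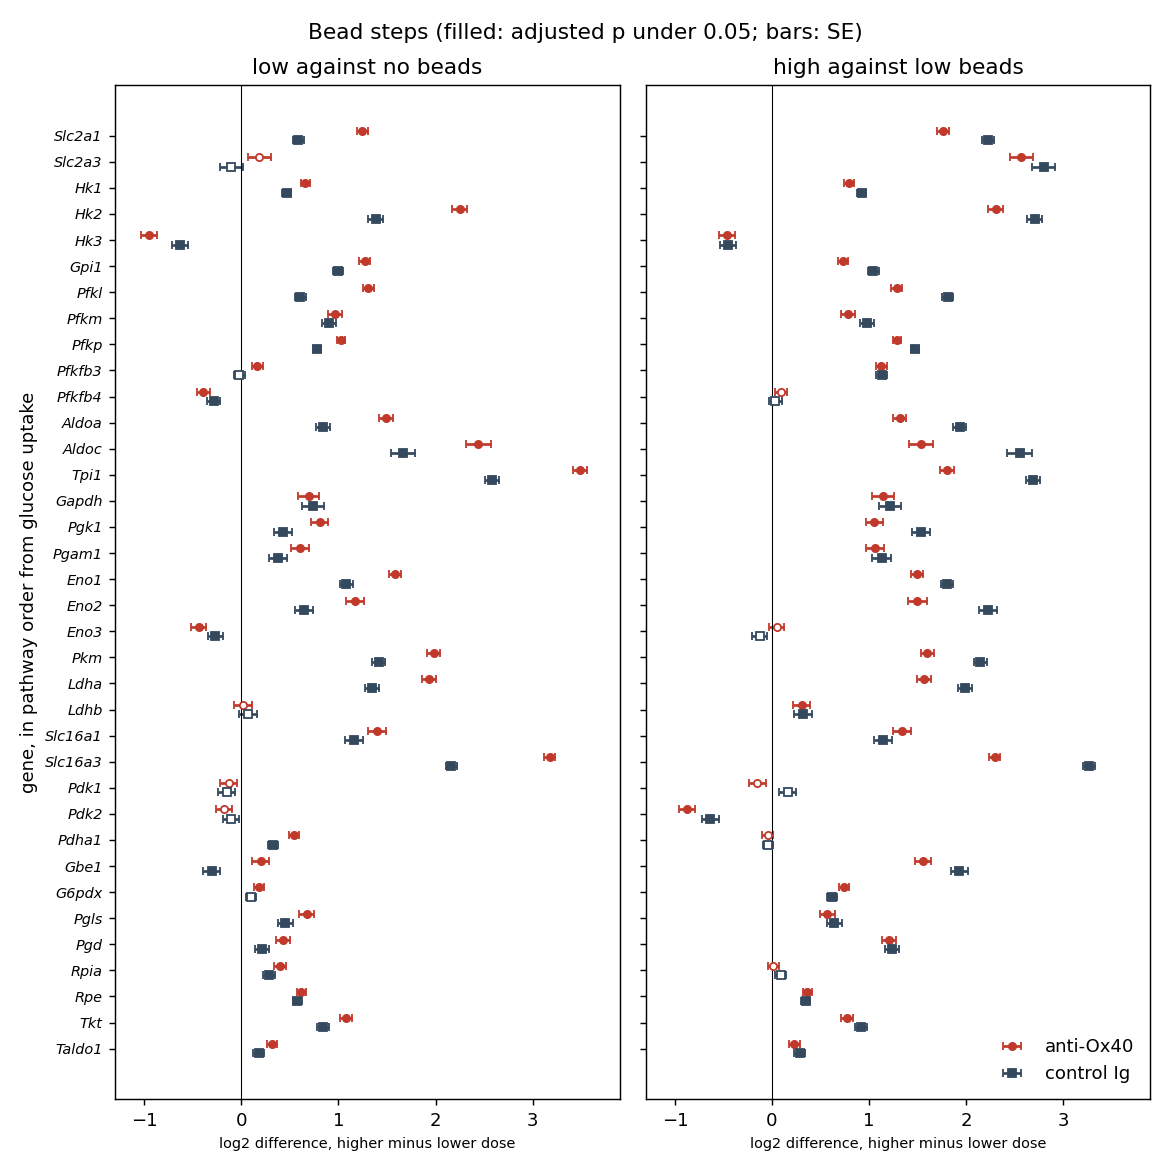
Difference in log2(nRPKM + 1) between bead doses for each of the 36 genes, in pathway order down the page, for low against no beads (left) and high against low beads (right). Red circles are anti-Ox40 and dark squares control Ig, bars are SE, and filled symbols passed an adjusted p under 0.05 (limma). Most genes lie right of 0 in both panels, with Tpi1 and Slc16a3 farthest in the left one, and Hk3 lies left of 0 in both.

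Anti-Ox40 had no detected effect on these genes without beads and raised 19 of the 36 at low beads. At high beads 7 were higher and 2 lower, which is near the shares of all tested genes. Without beads limma called 0 of 36 genes, while 0.138% of all tested genes were called higher and 0% lower. At an unadjusted p under 0.05 there was 1 of 36, Hk3, named here for that value, against 519 of all tested genes. The doses with beads differed from this. At low beads 19 were called higher and 0 lower, against 6.15% and 3.44% of all tested genes, and the median difference was 0.24, against 0.003 over all tested genes. At high beads 7 were called higher and 2 lower, against 14.4% and 11.6% of all tested genes, and the median difference was 0.067, against 0.004.

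The change of the antibody effect with bead dose was tested directly. The effect was larger at low beads than without beads for 9 genes and smaller for 0, against 0.26% and 0.00765% of all tested genes. These were Slc2a1, Hk2, Pfkl, Aldoa, Tpi1, Eno1, Pkm, Ldha and Slc16a3, a set that runs from glucose uptake to lactate export. At high beads the effect was larger than at low beads for 0 genes and smaller for 10, against 1.47% and 1.7% of all tested genes. These were Slc2a1, Gpi1, Pfkl, Aldoa, Aldoc, Tpi1, Eno2, Pkm, Ldha and Slc16a3. Both comparisons use the same low-bead libraries, so they are not independent of each other.

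These counts depend on how the spread was estimated and on single libraries. Of the 19 genes higher at low beads, 13 passed the test each time 1 library of the 2 groups was removed. With only the 6 libraries of the comparison in the model, 7 of the 36 were called, and calls over all tested genes fell as well, to 45, against 1254 with all 18 libraries. Without the library of highest B cell markers in each group, 6 of the 36 and 24 of all tested genes were called. Aldoa, Hk2, Pfkl, Slc16a3, Slc2a1 and Tpi1 were called under every alternative tried. Without control Ig low beads replicate 2, which lay above the rest of its group for most of these genes, 25 of the 36 were called higher and 1 lower, and 3522 of all tested genes were called.

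Markers of other cells and of RNA quality were measured in the same low-bead libraries. The 8 lung epithelium markers, among them Scgb1a1 and Sftpc, summed to 40.1 to 223 nRPKM with anti-Ox40 and to 0.014 to 26.8 nRPKM with control Ig, and all 6 that were tested were called higher with anti-Ox40. Malat1 was 213 to 254 nRPKM with anti-Ox40 and 173 to 453 nRPKM with control Ig, a range that encloses the anti-Ox40 values. The summed myeloid markers also overlapped, at 112 to 138 nRPKM with anti-Ox40 and 123 to 135 nRPKM with control Ig. With Malat1 as a covariate 17 genes of the list were called higher and 0 lower. Calls over all tested genes fell to 382 with it, against 1254 without it. The lung markers and Malat1 also differed between bead doses. The lung markers summed to 0 to 0.107 nRPKM without beads. At high beads they summed to 29.6 to 54.8 nRPKM with anti-Ox40 and 31.6 to 123 nRPKM with control Ig. Malat1 was 247 to 536 nRPKM without beads and 59.6 to 109 nRPKM at high beads. The part of the lung markers in the antibody result and in the bead steps was not tested.

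**Figure D2:**
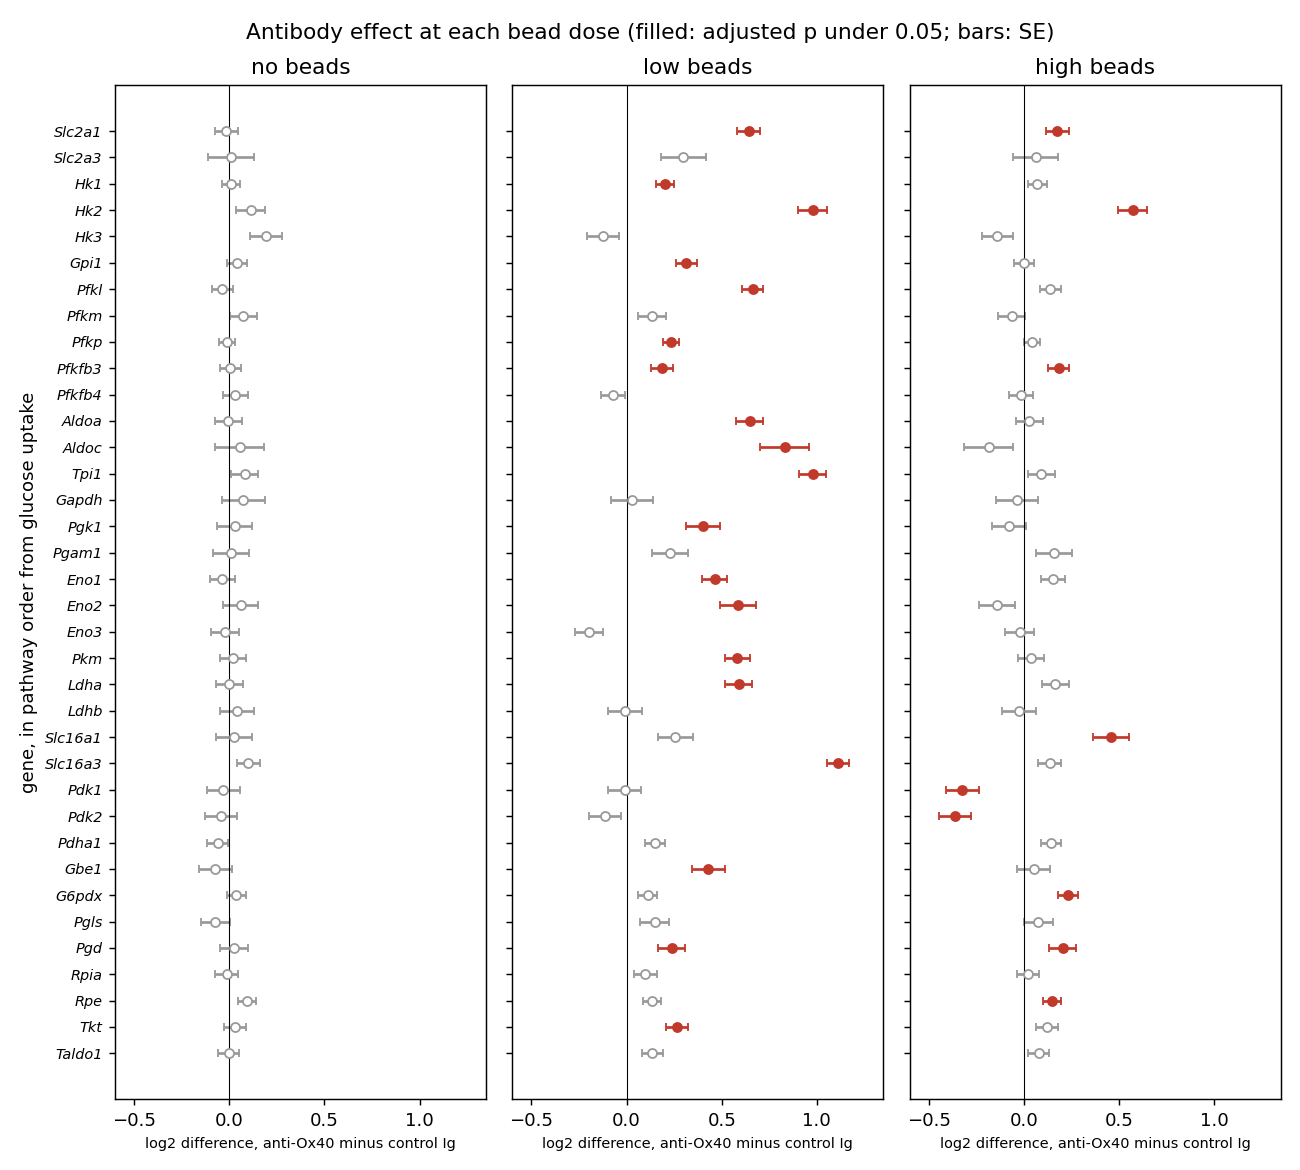
Difference in log2(nRPKM + 1), anti-Ox40 minus control Ig, for each of the 36 genes in pathway order down the page, at no, low and high beads. Bars are SE, and filled red symbols passed an adjusted p under 0.05 (limma). No gene is filled without beads, 19 are filled at low beads, all right of 0, and 9 at high beads, with Pdk1 and Pdk2 left of 0.

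Glucose enters T cells mainly through the facilitative transporters encoded by Slc2a1 and Slc2a3. Slc2a1 (chromosome 4, 119108745 to 119137330, GRCm38.p6) had 18.1, 18.5 and 19.0 nRPKM with anti-Ox40 and 19.0, 19.1 and 18.3 nRPKM with control Ig without beads. At low beads it had 43.2, 47.6 and 45.4 nRPKM with anti-Ox40 and 26.8, 32.7 and 27.0 nRPKM with control Ig. At high beads it had 160.0, 150.1 and 159 nRPKM with anti-Ox40 and 139, 137 and 139 nRPKM with control Ig. The antibody groups overlapped without beads and were apart at low and at high beads. The antibody difference was 0.64, SE 0.060, adjusted p = 2.4e-05 at low beads and 0.18, SE 0.060, adjusted p = 0.0416 at high beads, and it was smaller at high than at low beads (-0.47, SE 0.085, adjusted p = 0.0121). The call at high beads was lost in 10 of 14 alternatives.

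Slc2a3 (chromosome 6, 122727809 to 122802363), which encodes a transporter with a higher affinity for glucose, was called for the step of high against low beads and not for that of low against no beads. Without beads it had 18.4, 18.9 and 18.8 nRPKM with anti-Ox40 and 18.9, 18 and 18.8 nRPKM with control Ig. At low beads it had 19.6, 21.5 and 23.1 nRPKM with anti-Ox40 and 15.9, 17.6 and 18.1 nRPKM with control Ig, and at high beads 113, 121 and 165 nRPKM with anti-Ox40 and 106, 131 and 144 nRPKM with control Ig. The lower step gave 0.18, SE 0.119, adjusted p = 0.177 with anti-Ox40 and -0.11, SE 0.119, adjusted p = 0.457 with control Ig, and the upper step gave 2.57 with anti-Ox40 and 2.80 with control Ig. At low beads the antibody groups did not overlap, but the difference did not pass the test (0.30, SE 0.119, adjusted p = 0.114).

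Hexokinases trap glucose as glucose phosphate. Hk2 (chromosome 6, 82725025 to 82774454) encodes the inducible form that binds mitochondria. On the log2(nRPKM + 1) scale it had the largest antibody effect of the list at high beads. At low beads Hk2 came after Slc16a3 and, narrowly, Tpi1. Without beads it had 1.01, 1.20 and 1.497 nRPKM with anti-Ox40 and 1.12, 1.10 and 0.979 nRPKM with control Ig. At low beads it had 8.89, 10.6 and 9.34 nRPKM with anti-Ox40 and 4.19, 4.82 and 4.16 nRPKM with control Ig, and at high beads 53.5, 48.9 and 51.8 nRPKM with anti-Ox40 and 33.7, 35.8 and 33.2 nRPKM with control Ig. Every anti-Ox40 library was above every control Ig library at both bead doses. The difference was 0.98, SE 0.077, adjusted p = 3.42e-06 at low beads and 0.57, SE 0.077, adjusted p = 0.000138 at high beads, and it was larger at low beads than without beads (0.87, SE 0.110, adjusted p = 0.00135).

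Hk1, the constitutive form, was at a higher level than Hk2 in every group. It averaged 54.6 ± 0.627 nRPKM with anti-Ox40 and 47.4 ± 2.75 nRPKM with control Ig at low beads (SD, n = 3 each; 0.20, SE 0.049, adjusted p = 0.0246), and 95.4 ± 4.46 nRPKM with anti-Ox40 and 90.7 ± 2.36 nRPKM with control Ig at high beads (0.071, SE 0.049, adjusted p = 0.318). The share of Hk2 in the summed nRPKM of Hk2 and Hk1 was 15.0 ± 1.31% with anti-Ox40 and 8.47 ± 0.216% with control Ig at low beads, and 35.0 ± 0.936% with anti-Ox40 and 27.4 ± 1.25% with control Ig at high beads. At both doses the groups did not overlap, with an exact 2-sided permutation p of 0.1, the smallest that 3 against 3 libraries allow. The limma call of Hk1 at low beads was lost in 7 of 14 alternatives.

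Hk3, a form found mainly in myeloid cells, went the other way. It had 1.57, 2.25 and 1.80 nRPKM with anti-Ox40 and 1.42, 1.53 and 1.55 nRPKM with control Ig without beads, 0.440, 0.433 and 0.572 nRPKM with anti-Ox40 and 0.557, 0.604 and 0.684 nRPKM with control Ig at low beads, and 0.0710, 0.112 and 0.0330 nRPKM with anti-Ox40 and 0.179, 0.213 and 0.146 nRPKM with control Ig at high beads. At high beads every anti-Ox40 library lay below every control Ig library, with all values under 1 nRPKM. This antibody difference was called only in 1 of 13 alternatives. Hk3 fell at each bead step under each antibody. It was tested only through its cultures without beads, so this fall lends the bead counts no support. Low against no beads gave -0.95 with anti-Ox40 and -0.63 with control Ig, and high against low beads gave -0.47 with anti-Ox40 and -0.45 with control Ig. The summed level of 12 myeloid markers declined alongside. It was 365 to 482 nRPKM with anti-Ox40 and 381 to 416 nRPKM with control Ig without beads, 112 to 138 nRPKM with anti-Ox40 and 123 to 135 nRPKM with control Ig at low beads, and 38.1 to 44.2 nRPKM with anti-Ox40 and 43.9 to 53.4 nRPKM with control Ig at high beads. The part of myeloid cells in the Hk3 result was not tested. None of the 12 markers was at 0 in all libraries of a group. In RNA from whole cultures, fewer cells of a type and less RNA per cell cannot be told apart.

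The next steps rearrange glucose phosphate and commit it to glycolysis. Gpi1, the isomerase, averaged 77.0 ± 1.03 nRPKM with anti-Ox40 and 61.9 ± 5.95 nRPKM with control Ig at low beads (0.31, SE 0.054, adjusted p = 0.00512), and 129 ± 3.74 nRPKM with anti-Ox40 and 129 ± 4.41 nRPKM with control Ig at high beads (0.002, SE 0.054, adjusted p = 0.983). Of the 3 phosphofructokinase genes, which encode the subunits of the committing enzyme, Pfkl (chromosome 10, 77986947 to 78009807) was the most abundant in every group. It had 22.3, 22.2 and 23.5 nRPKM with anti-Ox40 and 23.4, 23.5 and 22.9 nRPKM with control Ig without beads, 58.2, 59.1 and 55.3 nRPKM with anti-Ox40 and 33.6, 40.5 and 34.1 nRPKM with control Ig at low beads, and 143, 141 and 141 nRPKM with anti-Ox40 and 133, 125 and 127 nRPKM with control Ig at high beads. The antibody groups overlapped without beads and were apart with beads, widely at low and narrowly at high beads. The difference was 0.66, SE 0.055, adjusted p = 5.76e-06 at low beads and did not pass the test at high beads (0.14, SE 0.055, adjusted p = 0.0767).

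Pfkp followed at low beads with a smaller difference (0.24, SE 0.042, adjusted p = 0.00651), and Pfkm did not pass the test (0.14, SE 0.073, adjusted p = 0.231). The share of Pfkl in the sum of Pfkl and Pfkp was 65.3 ± 1.49% with anti-Ox40 and 58.3 ± 1.99% with control Ig at low beads (exact permutation p = 0.1), and 65.1 ± 1.18% with anti-Ox40 and 63.6 ± 1.29% with control Ig at high beads (exact permutation p = 0.2).

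Pfkfb3 and Pfkfb4 encode bifunctional enzymes that make or break down the main activator of phosphofructokinase. Pfkfb3 had 8.41, 8.17 and 8.43 nRPKM with anti-Ox40 and 8.60, 7.99 and 8.33 nRPKM with control Ig without beads, 9.36, 9.01 and 9.97 nRPKM with anti-Ox40 and 7.55, 8.14 and 8.85 nRPKM with control Ig at low beads, and 22.0, 20.6 and 22.8 nRPKM with anti-Ox40 and 19.0, 18.1 and 20.1 nRPKM with control Ig at high beads. Its antibody difference was small at both doses, 0.19, SE 0.056, adjusted p = 0.0486 at low beads and 0.18, SE 0.056, adjusted p = 0.0257 at high beads, and the libraries of the groups did not overlap at either. The call at low beads was lost in 10 of 14 alternatives, and that at high beads in 6 of 14. Pfkfb4 was lower with beads: it had 2.35, 2.27 and 2.26 nRPKM with anti-Ox40 and 2.01, 2.39 and 2.27 nRPKM with control Ig without beads, and 1.49, 1.48 and 1.56 nRPKM with anti-Ox40 and 1.63, 1.64 and 1.64 nRPKM with control Ig at low beads. Low against no beads gave -0.39 with anti-Ox40 (adjusted p = 5.12e-05) and -0.29 with control Ig (adjusted p = 0.00108).

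Aldolase splits the hexose into 2 trioses, which triose phosphate isomerase converts into each other. Aldoa (chromosome 7, 126795234 to 126800994), the aldolase gene that dominates outside liver and brain, was the most abundant gene of the list in every group. It had 144, 136 and 161 nRPKM with anti-Ox40 and 145, 149 and 148 nRPKM with control Ig without beads, 410.1, 416 and 418 nRPKM with anti-Ox40 and 244, 299 and 253 nRPKM with control Ig at low beads, and 1016, 1004 and 1079.7 nRPKM with anti-Ox40 and 1007, 975 and 1056 nRPKM with control Ig at high beads. The antibody groups were apart only at low beads. The difference was 0.65, SE 0.071, adjusted p = 0.000126 at low beads and 0.030, SE 0.071, adjusted p = 0.804 at high beads, and its decline between these doses passed the test (-0.62, SE 0.100, adjusted p = 0.00881).

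Aldoc (chromosome 11, 78323073 to 78327781), the aldolase gene best known from brain, was at a far lower level. It had 1.58, 1.52 and 1.64 nRPKM with anti-Ox40 and 1.94, 1.03 and 1.57 nRPKM with control Ig without beads, 14.3, 11.3 and 13.6 nRPKM with anti-Ox40 and 7.04, 6.66 and 6.93 nRPKM with control Ig at low beads, and 34.5, 38.2 and 47.2 nRPKM with anti-Ox40 and 40.0, 47.3 and 48.8 nRPKM with control Ig at high beads. The antibody groups were apart at low beads, with anti-Ox40 higher (0.83, SE 0.128, adjusted p = 0.00225), and overlapped at high beads, where the difference was negative and did not pass the test (-0.18, SE 0.128, adjusted p = 0.32).

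Tpi1 (chromosome 6, 124810586 to 124814158) had the largest first step of the list on the log2(nRPKM + 1) scale. It had 16.8, 16.6 and 17.8 nRPKM with anti-Ox40 and 17.0, 16.4 and 14.9 nRPKM with control Ig without beads, 192, 208 and 204 nRPKM with anti-Ox40 and 90.5, 117 and 98.7 nRPKM with control Ig at low beads, and 701, 687 and 724 nRPKM with anti-Ox40 and 666, 654 and 661 nRPKM with control Ig at high beads. Every low-bead anti-Ox40 library lay above every low-bead control Ig library, and the high-bead groups were also apart, by a narrow margin. The antibody difference was 0.98, SE 0.071, adjusted p = 1.19e-06 at low beads and 0.093, SE 0.071, adjusted p = 0.377 at high beads. Low against no beads gave 3.48 with anti-Ox40 and 2.59 with control Ig. Its promoter window, shown above, held none of the motif letters searched. The entry LOC102642803, which the copy search did not name, moved alongside Tpi1. At low beads that entry averaged 359 ± 14.8 nRPKM with anti-Ox40 and 182 ± 23.0 nRPKM with control Ig. At high beads it averaged 1258 ± 47.7 nRPKM with anti-Ox40 and 1167 ± 8.25 nRPKM with control Ig. Whether it shares reads with Tpi1 was not tested, so the level of Tpi1 is uncertain too.

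**Figure D3:**
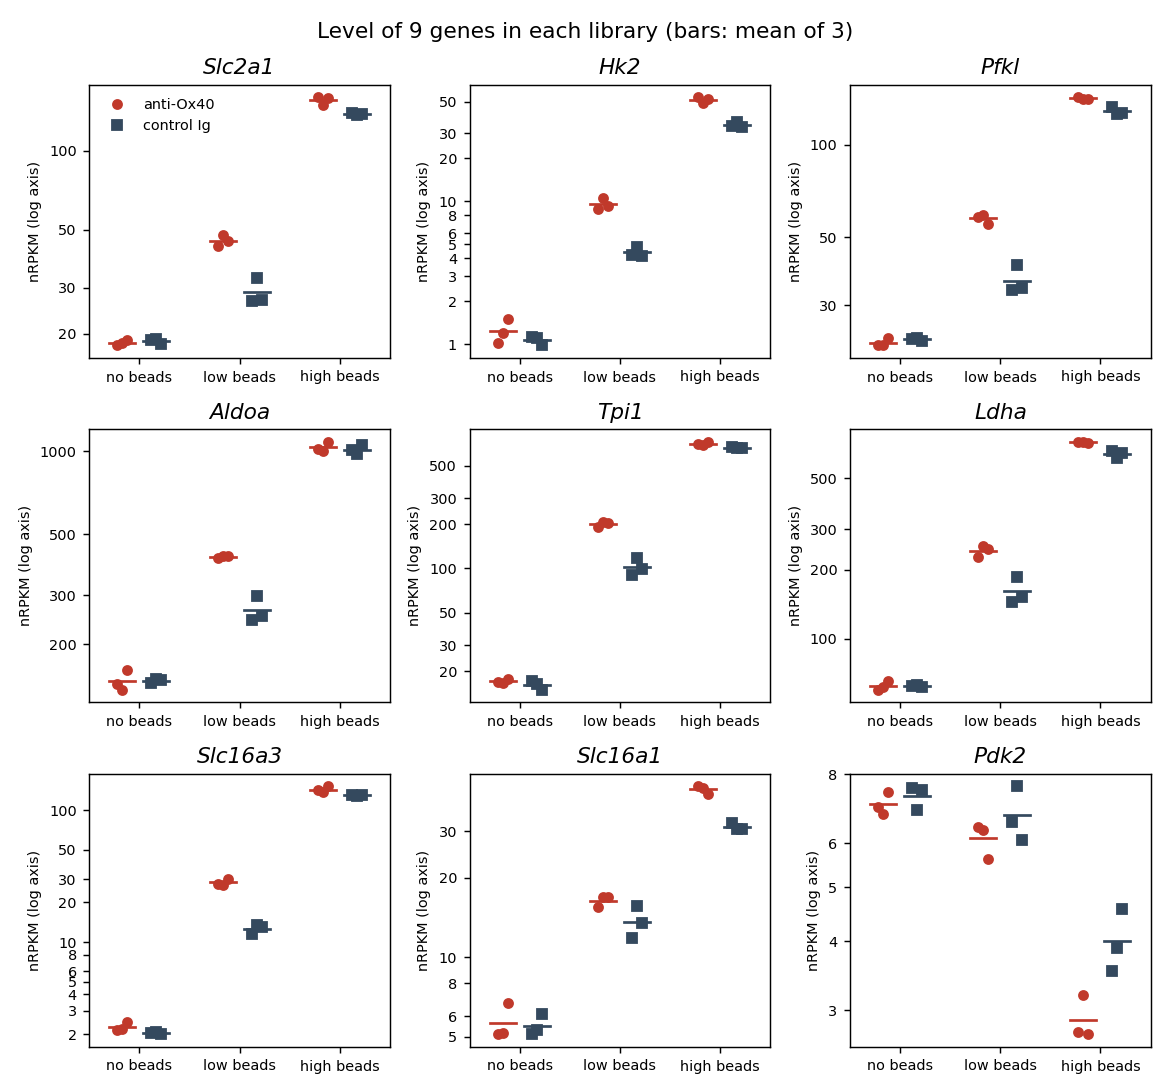
nRPKM of 9 genes in each of the 18 libraries on log axes, by bead dose, with anti-Ox40 (red circles) left of control Ig (dark squares) and a bar at the mean of 3. For Slc2a1, Hk2, Pfkl, Aldoa, Tpi1, Ldha and Slc16a3 the low-bead anti-Ox40 libraries all lie above the low-bead control Ig libraries, while Slc16a1 and Pdk2 overlap there and are apart at high beads.

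The middle steps include genes with near-identical copies. Gapdh, the dehydrogenase that makes NADH, averaged 3.16 ± 0.0802 nRPKM with anti-Ox40 and 3.09 ± 0.439 nRPKM with control Ig at low beads (0.030, SE 0.111, adjusted p = 0.887), and 8.26 ± 1.11 nRPKM with anti-Ox40 and 8.47 ± 0.628 nRPKM with control Ig at high beads. Pgk1, the kinase that forms ATP at the step after it, averaged 1.77 ± 0.0774 nRPKM with anti-Ox40 and 1.09 ± 0.0922 nRPKM with control Ig at low beads (0.40, SE 0.090, adjusted p = 0.0183). This call of Pgk1 was lost in 6 of 13 alternatives. Pgam1, the mutase that follows, averaged 1.21 ± 0.0627 nRPKM with anti-Ox40 and 0.894 ± 0.186 nRPKM with control Ig at low beads (0.23, SE 0.094, adjusted p = 0.124). All 3 rose at each bead step under each antibody, by 0.38 to 1.54. For Pgk1 and Pgam1, tested only through the cultures with beads, this rise lends the bead counts no support.

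Enolase makes phosphoenolpyruvate. Eno1, the form of most tissues, averaged 49.6 ± 1.95 nRPKM with anti-Ox40 and 35.8 ± 4.21 nRPKM with control Ig at low beads (0.46, SE 0.065, adjusted p = 0.00108), and 141 ± 4.17 nRPKM with anti-Ox40 and 127 ± 6.63 nRPKM with control Ig at high beads (0.15, SE 0.065, adjusted p = 0.0938). Its near-identical copy Eno1b moved alongside, at 27.0 ± 1.12 nRPKM with anti-Ox40 and 19.3 ± 2.09 nRPKM with control Ig at low beads. How reads shared by the 2 genes were counted is not known. Eno2, the form known from neurons, was called at low beads (0.58, SE 0.094, adjusted p = 0.00331) and not at high beads (-0.14, SE 0.094, adjusted p = 0.307), at group means of 0.969 to 13.4 nRPKM.

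Eno3, the form known from muscle, was the enolase gene that was lower with beads. It had 9.93, 11.5 and 9.56 nRPKM with anti-Ox40 and 10.7, 10.2 and 10.6 nRPKM with control Ig without beads, 6.90, 7.54 and 7.51 nRPKM with anti-Ox40 and 8.46, 7.45 and 9.80 nRPKM with control Ig at low beads, and 7.74, 7.44 and 7.59 nRPKM with anti-Ox40 and 7.57, 7.66 and 7.93 nRPKM with control Ig at high beads. Low against no beads gave -0.44 with anti-Ox40 (adjusted p = 7.07e-05) and -0.27 with control Ig (adjusted p = 0.00549), and no antibody difference was called.

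Pyruvate kinase forms pyruvate and ATP. Pkm averaged 184 ± 9.26 nRPKM with anti-Ox40 and 123 ± 15.3 nRPKM with control Ig at low beads (0.58, SE 0.067, adjusted p = 0.000177), and 559 ± 13.6 nRPKM with anti-Ox40 and 544 ± 8.05 nRPKM with control Ig at high beads (0.037, SE 0.067, adjusted p = 0.736). The table gives 1 value for the gene, so the splice forms of Pkm, which differ between resting and dividing cells, are not separated.

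Lactate dehydrogenase turns pyruvate into lactate and restores NAD. Ldha (chromosome 7, 46842274 to 46855627), whose subunit is the one tied to lactate formation, had 59.8, 61.6 and 65.4 nRPKM with anti-Ox40 and 62.3, 62.7 and 61.6 nRPKM with control Ig without beads, 226, 252 and 245 nRPKM with anti-Ox40 and 144, 186 and 152 nRPKM with control Ig at low beads, and 719, 715 and 712 nRPKM with anti-Ox40 and 658, 614 and 642 nRPKM with control Ig at high beads. The antibody groups overlapped without beads and were apart at both bead doses. The difference was 0.59, SE 0.072, adjusted p = 0.000303 at low beads and did not pass the test at high beads (0.17, SE 0.072, adjusted p = 0.103). Control Ig replicate 2 was the highest of its low-bead group, between the other control Ig libraries and the anti-Ox40 libraries.

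Ldhb, which encodes the other subunit, was not called for low against no beads, and high against low beads gave 0.30 with anti-Ox40 and 0.32 with control Ig. It averaged 4.96 ± 0.136 nRPKM with anti-Ox40 and 4.80 ± 0.336 nRPKM with control Ig without beads, 5.06 ± 0.634 nRPKM with anti-Ox40 and 5.09 ± 0.519 nRPKM with control Ig at low beads, and 6.45 ± 0.213 nRPKM with anti-Ox40 and 6.62 ± 0.931 nRPKM with control Ig at high beads. No antibody difference was called for it. Its share of the sum of both genes was 7.39 ± 0.323% with anti-Ox40 and 7.17 ± 0.526% with control Ig without beads, 2.06 ± 0.300% with anti-Ox40 and 3.08 ± 0.127% with control Ig at low beads, and 0.894 ± 0.0334% with anti-Ox40 and 1.03 ± 0.128% with control Ig at high beads. At low beads the share was lower with anti-Ox40 in every library (exact permutation p = 0.1).

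Lactate leaves through the monocarboxylate transporters encoded by Slc16a3 and Slc16a1, which differ in their affinity for lactate. Slc16a3 (chromosome 11, 120948484 to 120959000), the transporter typical of cells with high glycolysis, had the largest antibody effect of the list at low beads. It had 2.14, 2.17 and 2.47 nRPKM with anti-Ox40 and 2.05, 2.08 and 1.99 nRPKM with control Ig without beads, 27.7, 27.3 and 30.3 nRPKM with anti-Ox40 and 11.4, 13.5 and 13.1 nRPKM with control Ig at low beads, and 141, 137 and 152 nRPKM with anti-Ox40 and 131, 128 and 131 nRPKM with control Ig at high beads. The antibody groups did not overlap at any dose, with a gap that was narrow without beads and wide at low beads. The difference was 0.10, SE 0.059, adjusted p = 1 without beads, 1.11, SE 0.059, adjusted p = 6.65e-08 at low beads and 0.14, SE 0.059, adjusted p = 0.105 at high beads. The antibody effect at low beads exceeded that without beads (1.01, SE 0.084, adjusted p = 3.89e-05) and that at high beads (-0.97, SE 0.084, adjusted p = 3.25e-05 for high minus low), and these 2 tests passed under every alternative tried.

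Slc16a1 (chromosome 3, 104638664 to 104658462) showed its antibody effect at high beads. It had 5.11, 5.17 and 6.72 nRPKM with anti-Ox40 and 5.14, 5.33 and 6.10 nRPKM with control Ig without beads, 15.5, 16.9 and 16.9 nRPKM with anti-Ox40 and 11.8, 15.6 and 13.4 nRPKM with control Ig at low beads, and 44.3, 43.7 and 41.4 nRPKM with anti-Ox40 and 32.2, 30.7 and 30.6 nRPKM with control Ig at high beads. The groups overlapped without beads and at low beads and were apart at high beads. The difference was 0.26, SE 0.094, adjusted p = 0.0881 at low beads and 0.46, SE 0.094, adjusted p = 0.00225 at high beads, and the change of the effect between these doses did not pass the test (0.20, SE 0.132, adjusted p = 0.416).

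The balance of both exporters shifted with antibody and dose. Slc16a3 made up 28.7 ± 1.57% of their summed nRPKM with anti-Ox40 and 27.0 ± 2.15% with control Ig without beads. At low beads its share was 63.4 ± 1.37% with anti-Ox40 and 48.2 ± 1.66% with control Ig, and at high beads it was 76.8 ± 1.55% with anti-Ox40 and 80.7 ± 0.358% with control Ig. The share was thus higher with anti-Ox40 in every low-bead library and lower with anti-Ox40 in every high-bead library (exact permutation p = 0.1 at each).

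**Figure D4:**
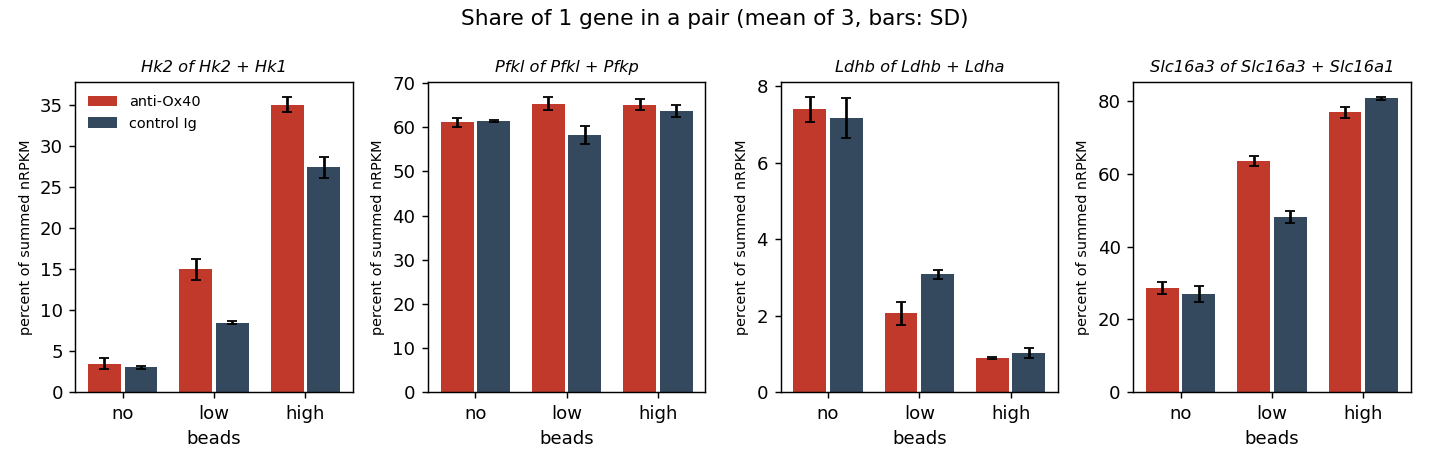
Share of 1 gene in the summed nRPKM of a pair, in percent, by bead dose, with anti-Ox40 (red) left of control Ig (dark), as the mean of 3 libraries with SD. The Hk2 share climbs with dose and is higher with anti-Ox40 at both bead doses, the Ldhb share declines with dose, and the Slc16a3 share is higher with anti-Ox40 at low beads and lower at high beads.

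At the gate to the mitochondrion, pyruvate dehydrogenase kinases switch off the pyruvate dehydrogenase complex, whose catalytic subunit is encoded by Pdha1. Pdk1 (chromosome 2, 71873215 to 71903858) had 43.4, 47.8 and 46.1 nRPKM with anti-Ox40 and 44.5, 48.3 and 47.7 nRPKM with control Ig without beads, 38.8, 44.0 and 42.7 nRPKM with anti-Ox40 and 37.8, 45.5 and 43.2 nRPKM with control Ig at low beads, and 33.8, 39.7 and 39.3 nRPKM with anti-Ox40 and 41.2, 51.9 and 49.0 nRPKM with control Ig at high beads. At high beads all anti-Ox40 libraries lay below all control Ig libraries (-0.32, SE 0.087, adjusted p = 0.0124), while at low beads the groups overlapped (-0.010, SE 0.087, adjusted p = 0.958).

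Pdk2 (chromosome 11, 95026258 to 95041371) had 6.99, 6.78 and 7.42 nRPKM with anti-Ox40 and 7.54, 6.89 and 7.50 nRPKM with control Ig without beads, 6.43, 6.35 and 5.63 nRPKM with anti-Ox40 and 6.57, 7.60 and 6.08 nRPKM with control Ig at low beads, and 2.74, 3.19 and 2.72 nRPKM with anti-Ox40 and 3.53, 3.88 and 4.58 nRPKM with control Ig at high beads. The antibody groups overlapped without beads and at low beads and were apart at high beads. It fell at high against low beads, by 0.88 on the log2 scale with anti-Ox40 and by 0.63 with control Ig, and its high-bead libraries were lower with anti-Ox40 (-0.36, SE 0.084, adjusted p = 0.00543). Neither kinase kept its call at high beads without the library of highest B cell markers in each group. The Pdk1 call was lost in 5 of 14 alternatives and the Pdk2 call in 1 of 14. Pdha1 averaged 71.6 ± 2.03 nRPKM with anti-Ox40 and 64.7 ± 2.33 nRPKM with control Ig at high beads (0.15, SE 0.053, adjusted p = 0.0578).

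Gbe1 encodes the branching enzyme of glycogen synthesis. It had 6.95, 7.73 and 7.25 nRPKM with anti-Ox40 and 7.74, 7.60 and 7.90 nRPKM with control Ig without beads, 8.17, 8.72 and 8.71 nRPKM with anti-Ox40 and 5.85, 6.84 and 5.60 nRPKM with control Ig at low beads, and 24.4, 25.3 and 31.8 nRPKM with anti-Ox40 and 23.7, 27.1 and 27.4 nRPKM with control Ig at high beads. Low against no beads was higher with anti-Ox40 (0.20, SE 0.086, adjusted p = 0.0498) and lower with control Ig (-0.31, SE 0.086, adjusted p = 0.00594), but the difference between these did not pass the test (0.50, SE 0.122, adjusted p = 0.115). The call with anti-Ox40 was lost in 10 of 14 alternatives. The antibody groups were apart at low beads (0.43, SE 0.086, adjusted p = 0.0112), a call lost in 4 of 14 alternatives.

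The oxidative arm of the pentose phosphate pathway begins with glucose phosphate dehydrogenase, encoded by G6pdx, and ends with phosphogluconate dehydrogenase, encoded by Pgd, the enzymes that make NADPH. G6pdx (chromosome X, 74409483 to 74428880) had 19.9, 20.5 and 19.7 nRPKM with anti-Ox40 and 20.1, 19.8 and 18.6 nRPKM with control Ig without beads, 23.1, 23.3 and 21.9 nRPKM with anti-Ox40 and 20.6, 23.0 and 19.5 nRPKM with control Ig at low beads, and 39.5, 38.7 and 37.6 nRPKM with anti-Ox40 and 33.9, 31.6 and 32.7 nRPKM with control Ig at high beads. The groups were apart only at high beads, with a difference of 0.23, SE 0.051, adjusted p = 0.00357, against 0.11, SE 0.051, adjusted p = 0.165 at low beads.

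Pgd (chromosome 4, 149149991 to 149166705) had 30.0, 33.9 and 35.0 nRPKM with anti-Ox40 and 32.0, 33.5 and 31.6 nRPKM with control Ig without beads, 44.0, 46.9 and 42.9 nRPKM with anti-Ox40 and 34.6, 43.5 and 35.4 nRPKM with control Ig at low beads, and 108, 102 and 102 nRPKM with anti-Ox40 and 90.7, 89.2 and 90.8 nRPKM with control Ig at high beads. It was called at both doses with values near the threshold (0.24, SE 0.072, adjusted p = 0.0486 at low beads, with libraries that overlapped, and 0.21, SE 0.072, adjusted p = 0.0462 at high beads, with libraries that were apart). Each of these calls was lost in 11 of 14 alternatives. Pgls, the lactonase between them, was called at neither dose (0.15, SE 0.077, adjusted p = 0.215 at low beads and 0.077, SE 0.077, adjusted p = 0.511 at high beads).

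The other arm interconverts sugar phosphates. Tkt, the transketolase gene, averaged 112 ± 2.78 nRPKM with anti-Ox40 and 93.3 ± 10.1 nRPKM with control Ig at low beads (0.26, SE 0.059, adjusted p = 0.0185) and 192 ± 2.29 nRPKM with anti-Ox40 and 176 ± 1.03 nRPKM with control Ig at high beads (0.12, SE 0.059, adjusted p = 0.147). Rpe, the epimerase, was called at high beads alone (0.15, SE 0.047, adjusted p = 0.0281; 0.13 at low beads, adjusted p = 0.0763). The Tkt call at low beads and the Rpe call at high beads were each lost in 5 of 14 alternatives. Rpia, the isomerase that makes ribose phosphate, and Taldo1, the transaldolase, were called at neither dose, with differences of 0.10 and 0.14 at low beads. Their bead responses were the smallest of this arm, with high against low beads at 0.014 for Rpia and 0.23 for Taldo1 with anti-Ox40, and at 0.090 and 0.29 with control Ig.

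Of the 9 genes called at high beads, G6pdx, Hk2 and Slc16a1 were called under every alternative tried, and without the library of highest B cell markers in each group these 3 were the only ones called. Also at high beads, 6 of the 10 CD4 T cell markers were called lower with anti-Ox40, against 11.6% of all tested genes, among them Cd3e at 171 ± 9.91 nRPKM with anti-Ox40 and 218 ± 12.3 nRPKM with control Ig (-0.35, SE 0.054, adjusted p = 0.000338). Their part in the result was not tested.

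Neighbouring pathways were described from 5 further lists of genes, none of which had a call without beads. Of 33 tested genes of pyruvate entry and the citrate cycle, 4 were called higher with anti-Ox40 and 0 lower at low beads, and 11 higher and 0 lower at high beads, with a median difference of 0.12 at each dose. Over all tested genes 6.15% were called higher and 3.44% lower at low beads, and 14.4% higher and 11.6% lower at high beads, and the counts of these lists are to be read against those shares. The 4 at low beads were Pdk3, another pyruvate dehydrogenase kinase (0.34, SE 0.051, adjusted p = 0.00178), the citrate carrier gene Slc25a1 (0.29, SE 0.052, adjusted p = 0.00637), the citrate synthase gene Cs (0.19, SE 0.051, adjusted p = 0.0358) and Sdhb of succinate dehydrogenase (0.20, SE 0.061, adjusted p = 0.0478). Of these, Sdhb was not among the 11 at high beads.

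Of 28 tested regulators of these pathways, 4 were called higher and 1 lower at low beads, and 8 higher and 4 lower at high beads, against the same shares of all tested genes. Bhlhe40, a basic helix-loop-helix repressor, averaged 28.3 ± 2.49 nRPKM with anti-Ox40 and 13.4 ± 0.242 nRPKM with control Ig at low beads (1.02, SE 0.059, adjusted p = 1.12e-07). Egln3 and Egln1, the prolyl hydroxylases that mark hypoxia-inducible factor for breakdown and are also its targets, gave 1.05, SE 0.109, adjusted p = 7.68e-05 and 0.48, SE 0.060, adjusted p = 0.000435. Mxi1, an antagonist of Myc, gave 0.22, SE 0.064, adjusted p = 0.0459, and Mlxip, a glucose-responsive factor, was lower (-0.29, SE 0.081, adjusted p = 0.0378).

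Of 30 tested genes in a list of other carbohydrate enzymes and transporters, 3 were called higher and 3 lower at low beads, and 9 higher and 1 lower at high beads. Those higher at low beads were the phosphoglucomutase gene Pgm2 (0.56, SE 0.063, adjusted p = 0.000169), Bsg, the chaperone of the monocarboxylate transporters (0.36, SE 0.051, adjusted p = 0.00128), and Prps1, which makes the ribose donor for nucleotides (0.49, SE 0.100, adjusted p = 0.0124). Of those lower, Gpd1l gave -0.15 and Pfkfb2, a further member of the Pfkfb family, gave -0.24. In the sugar nucleotide list, 3 of 14 tested genes were called higher and 0 lower at low beads, among them the galactokinase gene Galk1 (0.76, SE 0.096, adjusted p = 0.000435) and Pmm1 (0.30), and 4 were called higher at high beads. Of 10 tested glycogen genes, Gys1, the glycogen synthase gene, was higher at low beads (0.37, SE 0.065, adjusted p = 0.00536) and Pygm, a glycogen phosphorylase gene, was lower (-0.40, SE 0.109, adjusted p = 0.0341).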

How the data were processed

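The authors deposited 1 table of nRPKM values, an RPKM (read number per gene length and library size) with a further normalization. Per the submitters' processing notes, GSNAP was used with the mouse build GRCm38, with no version named. How reads were counted, on which annotation, how libraries were scaled and how reads shared by copies were treated is not given in the sources used here. Per the labels, the library kit was one that does not mark strand, so reads of overlapping genes on opposite strands cannot be told apart. Depth was worked out from the deposited RPKM values of microRNA genes: 100% fell on whole multiples of 1 read, within 0.1 read. Sums of nRPKM were 273498 to 348466 per library.

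The test took the 13075 genes that reached 1 nRPKM in 3 or more of the 18 libraries. log2(nRPKM + 1) was fitted with limma 3.58.1 in R 4.3.3 with a mean for each of 6 groups, 12 residual degrees of freedom and a mean-variance trend, 2-sided. Benjamini-Hochberg adjustment ran over all tested genes, in each of 9 comparisons. The script was tested on simulated data. Shares of gene pairs were compared with the exact permutation test. Coordinates are from RefSeq on GRCm38.p6, and copies were searched in GENCODE M21 transcripts with 50-base words.

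Values are given per library for Slc2a1, Slc2a3, Slc16a1, Slc16a3, for up to 8 called genes of largest change per antibody comparison, and for genes called against the majority. The values of 1 gene that the rule for the further lists names are not reported here. The genes and lists were chosen with earlier results of these data known. Alternatives were a pseudocount of 0.1, a filter of 5 or none, median scaling, no trend, Malat1 as a covariate, only the groups compared, each library left out, and the library of highest B cell markers left out of each group.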

Additional observations from a re-analysis of the deposited data

Results flagged for a closer look

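The effect of anti-Ox40 differed between bead doses for some genes, by a test of the difference itself in limma (difference of log2 differences, adjusted over all 13075 genes). Low beads minus no beads gave 1.01 for Slc16a3, 0.90 for Tpi1, 0.87 for Hk2, 0.70 for Pfkl, 0.66 for Slc2a1, 0.65 for Aldoa, 0.59 for Ldha, 0.56 for Pkm and 0.50 for Eno1, with adjusted p from 3.89e-05 for Slc16a3 to 0.0272 for Eno1. High beads minus low beads gave -1.02 for Aldoc, -0.97 for Slc16a3, -0.89 for Tpi1, -0.72 for Eno2, -0.62 for Aldoa, -0.55 for Pkm, -0.52 for Pfkl, -0.47 for Slc2a1, -0.42 for Ldha and -0.31 for Gpi1, with adjusted p from 3.25e-05 for Slc16a3 to 0.0384 for Gpi1. Slc16a3 passed both tests under every alternative tried.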

How the results depend on the processing

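No paired analysis was possible because the labels give no number shared between groups. The numbers used here follow accession order, and a block by that order was not fitted. At low beads the count of genes called for the antibody was 19, against 7 with only the groups compared and 6 without the library of highest B cell markers in each group, and it ran from 13 to 26 when 1 library was left out. Over all tested genes the low-bead calls were 1254, against 45 and 24 in turn, and 131 to 3522 with 1 library left out. At high beads the count for the 36 genes was 9, against 3 without those B cell libraries, and it ran from 4 to 8 with 1 library left out. Over all tested genes the high-bead calls were 3397, against 1387 and 2065 to 3363 in turn. For the 36 genes the high-bead count was 11 with only the groups compared, and 10 with a filter of 5 and with a pseudocount of 0.1. Over all tested genes it was 3028, 3153 and 3404 in turn. The larger antibody effect at low than at no beads was called for 9 genes, against 5 with only the groups compared and 1 without the B cell libraries, and for 6 to 18 with 1 library left out. The highest of these came without control Ig low beads replicate 2, where calls over all tested genes also rose, to 1866, against 35. Those calls were 17 with only the groups compared and 1 without the B cell libraries. The smaller effect at high than at low beads was called for 10 genes, against 1 without the B cell libraries, and for 8 to 15 with 1 library left out. Over all tested genes this comparison had 414 calls in either direction, against 3 and 102 to 1243 in turn. Leaving out the B cell libraries removes 6 of 18 libraries. The number of libraries and the B cell markers thus changed together, and the cause of these shifts was not tested. Counts for the bead steps and for the antibody without beads stayed within 1.5 times under every alternative, and no called difference of the 36 genes reversed its direction. Depth limits the low genes: Hk3, Pgk1 and Pgam1 lay below 1 nRPKM in part of the libraries.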
